A study of Mus musculus with 9 samples.

Results

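The interferon-stimulated genes examined here are 39 mouse genes taken by name from the 55385 gene IDs of the deposited tables, and all 39 names matched an ID. They were followed in kidneys of C57BL/6 mice in 3 groups of 3 libraries: day 3 after 1 intraperitoneal injection of cisplatin at 20 mg/kg, day 7 after the same injection, and sham mice given saline by the same route. Cisplatin, a platinum-based anticancer drug, is toxic to the kidney tubule, and the series asks how renal mRNA differs between phases of the acute injury it causes. The labels call the libraries biological repeats and give no age or sex. They do not say that each library is a separate mouse, so the p-values measure the spread between these libraries. Levels are FPKM, fragment counts scaled by transcript length and by library size, and so can be compared between genes.

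Type I interferons bind the receptor IFNAR1 and IFNAR2, and interferon gamma binds IFNGR1 and IFNGR2. Janus kinases on these receptors phosphorylate STAT proteins. A complex that contains STAT2 and IRF9 binds the interferon-stimulated response element (ISRE), whereas STAT dimers formed after interferon gamma bind the gamma-activated site (GAS). The induced genes encode sensors of viral RNA, enzymes that degrade RNA or block translation, and GTPases that act on the vacuoles of intracellular pathogens. In sterile tissue injury, such genes are known to respond to nucleic acids that have left the nucleus or the mitochondria.

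Each library summed to 421810 to 509537 FPKM and had 11647 to 13183 genes at 1 FPKM or more. The tables hold no counts, so read depth is unknown. The 8 kidney tubule markers summed to 234 to 640 FPKM at day 3 and 2025 to 2076 FPKM at day 7, against 2246 to 2622 FPKM in sham. The 9 neutrophil markers summed to 29.2 to 105 FPKM at day 3 and 4.61 to 22.7 FPKM at day 7, against 2.74 to 14.5 FPKM in sham, with 1 of them at 0 in every day 3 library. S100a8, S100a9 and Retnlg were the 3 tested, all called higher at day 3, and 4 of the 9 were at or under 1 FPKM in all 9 libraries. The 10 macrophage and monocyte markers summed to 111 to 144 FPKM at day 3 and 29.9 to 84.3 FPKM at day 7, against 67.9 to 75.7 FPKM in sham. Cd68 alone carried the higher sum at day 3, since the other 9 summed to 15.6 to 38.6 FPKM at day 3, against 63.6 to 70.6 FPKM in sham, and of the 7 tested 1 was called higher and 4 lower. The 4 markers of plasmacytoid dendritic cells, a major source of type I interferon in infection, summed to 0.05 to 0.28 FPKM at day 3, against 1.03 to 1.74 FPKM in sham, but Cox6a2 made up nearly all of the sham sum and the other 3 were at or under 0.07 FPKM in all 9 libraries. In bulk tissue, fewer cells of a type and less RNA per cell cannot be told apart, and the part of these marker shifts in the results that follow was not tested. Of the libraries, day 3 library 1 (the number is the replicate number of the labels) and day 7 library 2 stood apart in some of the genes described here, and the values concerned are given where they arise.

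At day 3, interferon-stimulated genes were higher than in sham across every class of function. Of the 37 members that passed the filter on low values, 34 were called higher, 0 were called lower and 3 were not called (limma on log2(FPKM + 1), Benjamini-Hochberg adjusted p under 0.05). At an unadjusted p under 0.05 in limma, 34 were higher and 0 lower. Over all 13718 tested genes, 39.3% were called higher and 20.6% lower in the same comparison, or 29.8% higher and 28.8% lower under median-of-ratios scaling. The median log2 fold change of the tested members was 1.48, beside 0.25 over all tested genes. Under median-of-ratios scaling these medians were 1.24 and 0.03, and 33 members were called higher. In 36 of the 39 members every day 3 library lay above every sham library, which held for 42.1% of all tested genes. The exceptions were Irf1, Igtp and Cmpk2.

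The filter required 1 FPKM in at least 3 of the 9 libraries. Oas3 and Mx1 stayed below it. Of the 37 members that passed, 7 (Herc6, Dhx58, Oasl1, Oas1b, Oas2, Isg20 and Mx2) passed only through the day 3 libraries, so these had little room to be anything but higher there. The counts by class below include these 7, and the share called higher over all tested genes, to be set beside them, is 39.3%. Of the 30 members that passed on the sham and day 7 libraries alone, 27 were called higher at day 3 and 0 lower, beside 36.2% called higher and 22.6% lower among the 12498 genes that passed in the same way.

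**Figure D1:**
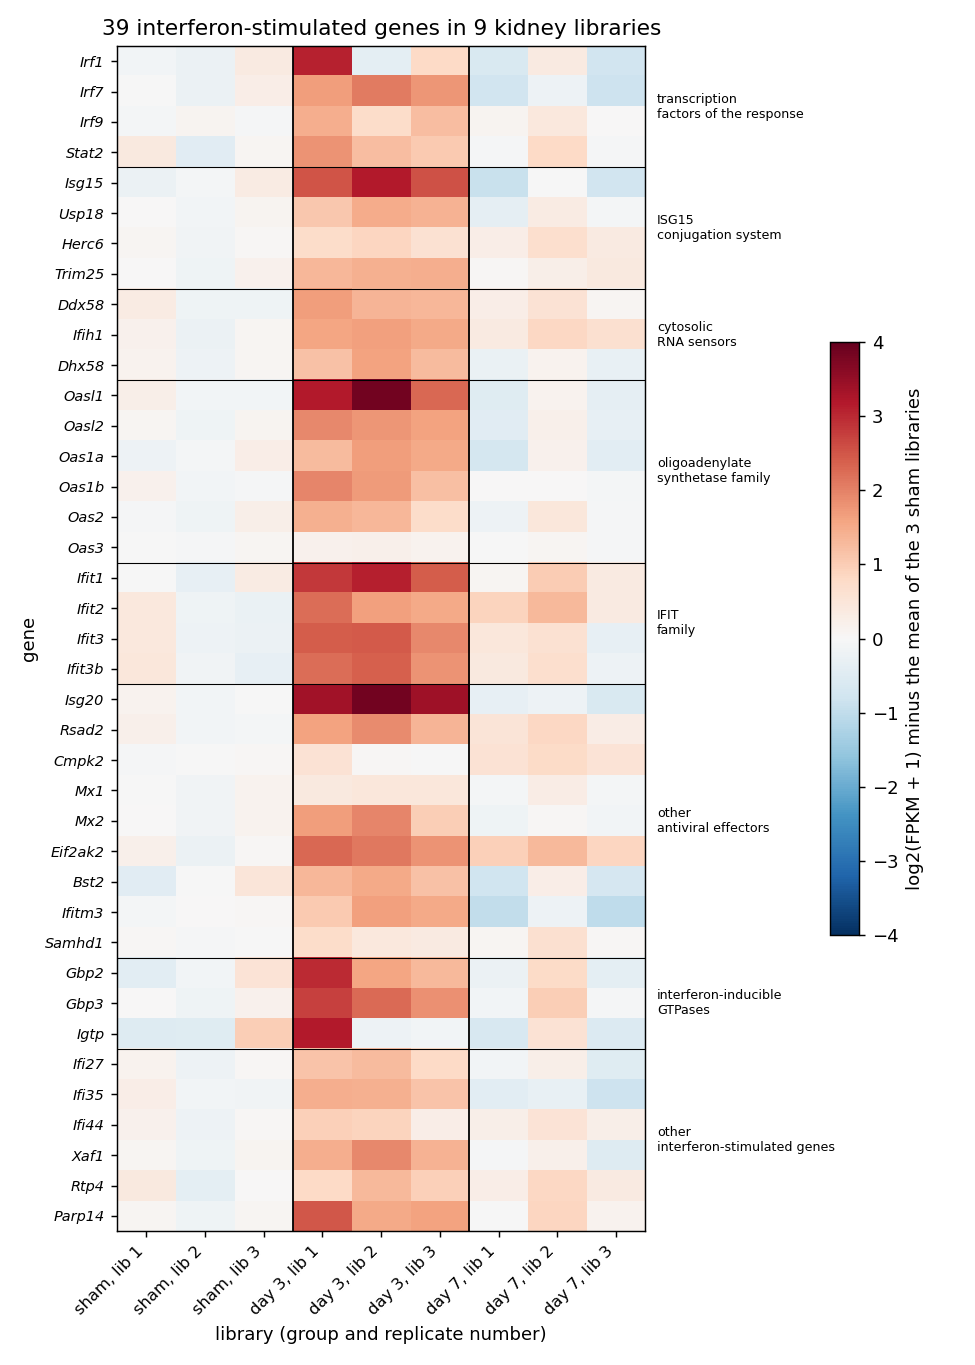
Levels of the 39 interferon-stimulated genes (rows, grouped by role) in the 9 libraries (columns: sham, day 3 and day 7), as log2(FPKM + 1) minus the mean of the 3 sham libraries. The day 3 block is red in nearly every row, with Cmpk2, Irf1 and Igtp as the rows in which the day 3 libraries were not all above sham, and the day 7 block is close to the sham block.

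The transcription factors of the response come first, since they act on the others. Irf7, which amplifies the type I interferon response, stood at 10.6, 14.6 and 11.4 FPKM at day 3, against 2.66, 2.10 and 3.37 FPKM in sham. All 3 day 3 libraries were at least 3 times the highest sham library, and the log2 fold change was 1.83 ± 0.21 (SE, limma adjusted p = 0.000112). Irf9, the DNA-binding subunit of the complex with STAT2, stood at 9.96, 5.69 and 8.43 FPKM at day 3, against 2.80, 3.40 and 2.94 FPKM in sham. Its groups did not overlap (1.13 ± 0.19, limma adjusted p = 0.000993), with the limit that Irf9 overlaps Rnf31 on the same strand. Stat2, its partner, stood at 9.95, 6.41 and 5.58 FPKM at day 3, against 3.10, 1.30 and 2.35 FPKM in sham, again without overlap (1.36 ± 0.31, limma adjusted p = 0.00474). Irf1, a factor induced most directly by interferon gamma and inflammatory signals, was the member of this class that was not called. It stood at 48.3, 3.49 and 9.25 FPKM at day 3, against 4.43, 3.96 and 6.53 FPKM in sham, so that 1 day 3 library was far above, 1 was above and 1 was below all sham libraries (1.16 ± 0.74, limma adjusted p = 0.205).

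All 4 genes of the ISG15 conjugation system were called higher, with Herc6 passing the filter only through the day 3 libraries. Isg15, the ubiquitin-like protein that is attached to other proteins during the response, stood at 27.7, 44.5 and 27.9 FPKM at day 3, against 3.28, 3.69 and 5.22 FPKM in sham (2.75 ± 0.28, limma adjusted p = 6.36e-05). Its mean of 33.4 ± 9.61 FPKM at day 3, against 4.06 ± 1.02 FPKM in sham (SD, n = 3 each), is a ratio of 8.22. Usp18, the protease that removes ISG15 and restrains the type I receptor, stood at 3.22, 4.65 and 4.33 FPKM at day 3, against 1.02, 0.85 and 1.18 FPKM in sham (1.32 ± 0.19, limma adjusted p = 0.000402). Trim25, a ubiquitin ligase that acts on the sensor RIG-I, had the narrowest spread relative to its mean in the class, with a mean of 28.9 ± 1.39 FPKM at day 3, against 10.3 ± 1.26 FPKM in sham (SD, n = 3 each). Herc6, the mouse ligase for ISG15, was the lowest of the class, at 1.22, 1.39 and 1 FPKM at day 3, against 0.39, 0.21 and 0.38 FPKM in sham. Its call (0.73 ± 0.14, limma adjusted p = 0.00185) was lost when trends with GC content and transcript length were removed (adjusted p = 0.0626).

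**Figure D2:**
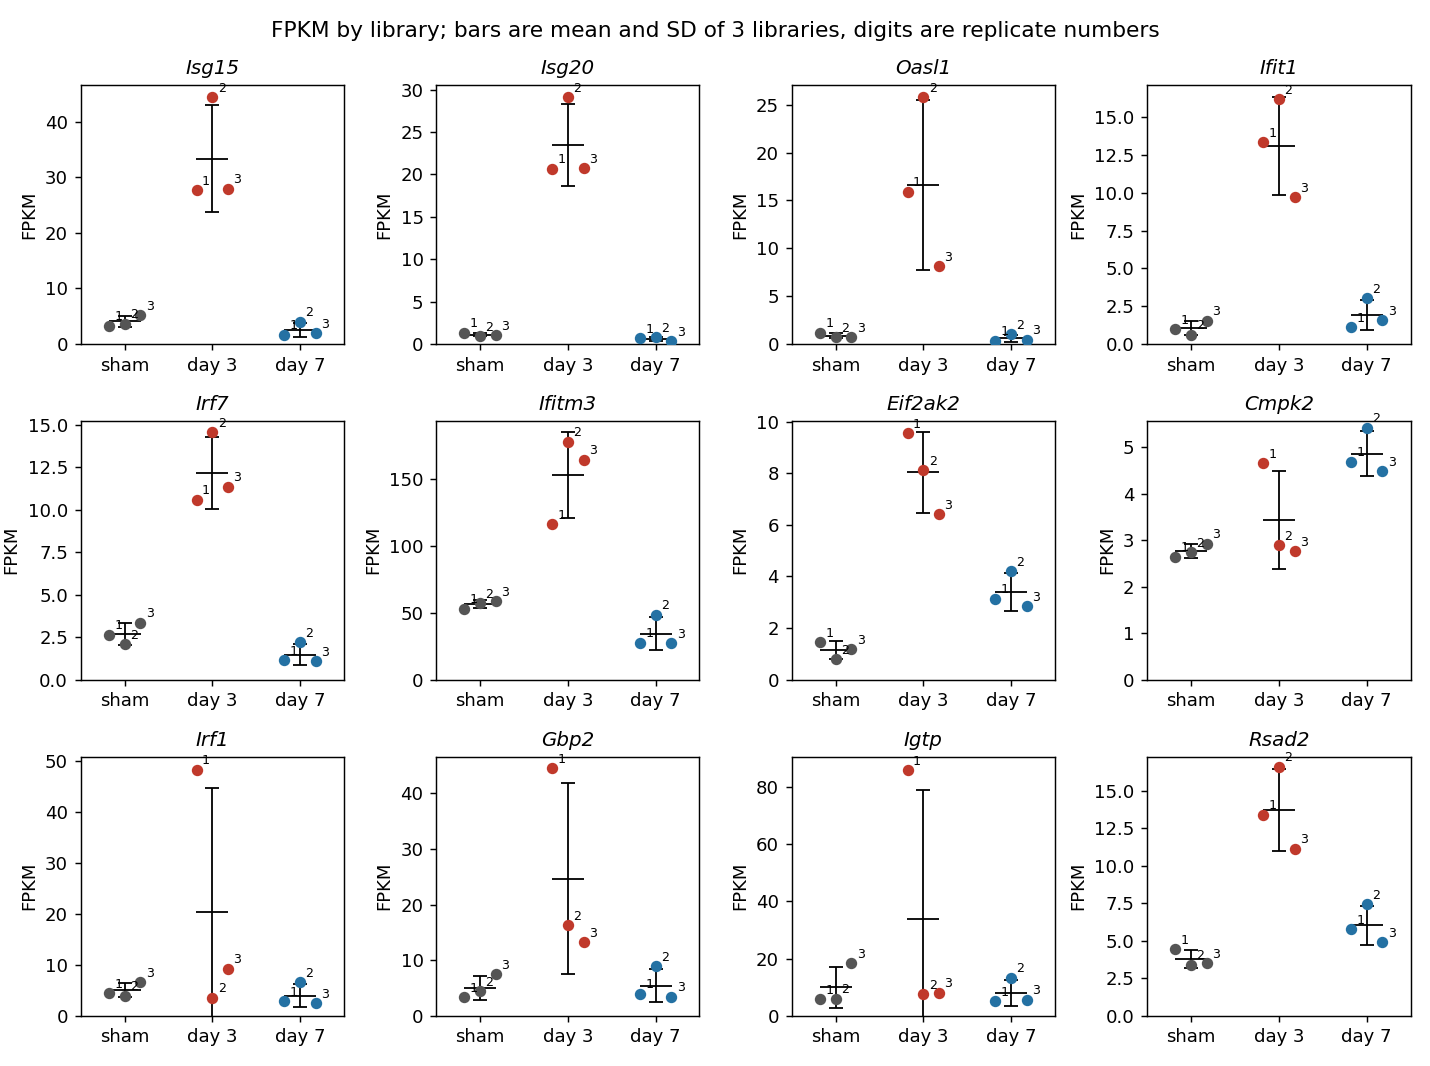
FPKM of 12 genes in each of the 9 libraries (points), with the mean and SD of each group (n = 3), on a linear axis for each gene; SD bars that reach below 0 are cut at the axis. Isg15, Isg20, Oasl1, Ifit1 and Irf7 were high in all 3 day 3 libraries, whereas Irf1 and Igtp were high mainly in day 3 library 1, at 48.3 and 85.9 FPKM.

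The promoter windows of Isg15 and Ifit1 are shown because they hold 3 and 2 ISRE cores and are among the members with the largest changes at day 3. RefSeq windows on GRCm38.p6 run from 250 bases before to 50 bases after the annotated start and hold 300 bases. The letters searched were GAAANNGAAA on both strands for the ISRE core and TTCNNNGAA, which is its own reverse complement, for GAS, and matches may overlap each other. Capitals mark the matches. Isg15 lies at chr4:156200769-156201068 on the minus strand and Ifit1 at chr19:34640639-34640938 on the plus strand, each printed 5′ to 3′ in the direction of the gene.
Isg15: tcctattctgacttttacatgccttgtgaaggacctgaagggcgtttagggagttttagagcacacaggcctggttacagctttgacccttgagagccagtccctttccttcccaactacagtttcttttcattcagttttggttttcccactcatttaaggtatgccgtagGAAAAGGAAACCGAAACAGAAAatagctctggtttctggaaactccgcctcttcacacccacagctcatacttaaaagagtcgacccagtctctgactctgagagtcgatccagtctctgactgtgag
Ifit1: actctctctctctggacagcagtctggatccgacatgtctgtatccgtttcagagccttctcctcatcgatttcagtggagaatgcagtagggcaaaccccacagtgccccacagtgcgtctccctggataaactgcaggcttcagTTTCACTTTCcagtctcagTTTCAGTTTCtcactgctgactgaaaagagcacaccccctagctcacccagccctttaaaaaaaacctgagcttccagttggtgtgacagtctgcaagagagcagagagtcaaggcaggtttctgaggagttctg
Counted from the first base of the gene as 0, Isg15 holds 3 overlapping ISRE cores that begin between -78 and -66, and Ifit1 holds 2 that begin at -104 and -85. Of the 39 members, 30 had a window, and 16 of these (53.3%) held at least 1 ISRE core, beside 3.99% of the 27025 genes with a window. GAS letters were found in 10 of the 30 (33.3%), beside 9.55% of all genes with a window. The 25 ISRE matches began between -222 and 32, and 16 of them began within the 150 bases before the start. Isg20 and Oasl1, which had the largest log2 fold changes at day 3, held no ISRE core in their windows. A match describes the letters of a window and is not evidence of a bound site.

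The 3 cytosolic RNA sensors were all called higher, with Dhx58 passing the filter only through the day 3 libraries. Ddx58, which encodes RIG-I, stood at 10.3, 8.23 and 7.98 FPKM at day 3, against 3.54, 2.22 and 2.18 FPKM in sham (1.45 ± 0.19, limma adjusted p = 0.00024). Ifih1, which encodes MDA5, stood at 3.91, 4.08 and 3.69 FPKM at day 3, against 0.83, 0.39 and 0.71 FPKM in sham (1.58 ± 0.15, limma adjusted p = 5.16e-05), with the day 3 libraries close together and the sham libraries all under 1 FPKM. Dhx58, which encodes LGP2, a helper of MDA5, averaged 3.28 ± 0.714 FPKM at day 3, against 0.673 ± 0.204 FPKM in sham (SD, n = 3 each), and its log2 fold change was 1.35.

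Of the oligoadenylate synthetase family, enzymes that make the second messenger of RNase L together with their inactive relatives, the 5 tested members were called higher. Of these 5, Oasl1, Oas1b and Oas2 passed the filter only through the day 3 libraries. Oasl1, a relative that in mice restrains translation of Irf7, stood at 15.9, 25.8 and 8.12 FPKM at day 3, against 1.18, 0.71 and 0.72 FPKM in sham. Its day 3 libraries differed widely, yet the lowest was still well above the highest sham library (3.11 ± 0.35, limma adjusted p = 0.000109). Oas1b stood at 6.34, 5.25 and 3.40 FPKM at day 3, against 1.16, 0.76 and 0.83 FPKM in sham (1.62 ± 0.18, limma adjusted p = 0.000114). Oas1b and Mx2 are annotated as polymorphic pseudogenes, genes that are intact in some mouse strains and broken in others, so their values are transcript levels only. Oasl2, Oas1a and Oas2 had log2 fold changes of 1.76, 1.48 and 1.17. Oas3, which the filter left out, stood at 0.21, 0.24 and 0.18 FPKM at day 3, against 0.05, 0.03 and 0.13 FPKM in sham, without overlap.

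The IFIT genes, whose proteins bind viral RNA that lacks the host cap modification, lie together on chromosome 19 between 34550694 and 34650009 (GENCODE M21, GRCm38), and all 4 were called higher. Ifit1 stood at 13.4, 16.2 and 9.71 FPKM at day 3, against 0.97, 0.61 and 1.53 FPKM in sham (2.79 ± 0.28, limma adjusted p = 6.01e-05). Ifit3 was the most abundant of the 4, at 84.3, 85.4 and 59.1 FPKM at day 3, against 20.2, 12.8 and 12.6 FPKM in sham (2.27 ± 0.29, limma adjusted p = 0.000199). Ifit3b stood at 24.0, 27.1 and 17.6 FPKM at day 3, against 6.37, 3.90 and 3.25 FPKM in sham (2.14 ± 0.28, limma adjusted p = 0.00024). Transcripts of Ifit3 and Ifit3b are identical over 98% of their aligned bases, so reads may have been divided between them, and the ratio of Ifit3 to Ifit3b stayed between 3.05 and 3.87 in the 9 libraries. Ifit2 averaged 8.14 ± 2.56 FPKM at day 3, against 1.65 ± 0.709 FPKM in sham (SD, n = 3 each; 1.79 on the log2 scale).

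Among the other antiviral effectors, 7 of the 8 tested members were called higher and Cmpk2 was not. Isg20 and Mx2 passed the filter only through the day 3 libraries. Isg20, an exonuclease that degrades RNA, had the largest log2 fold change of all members. It stood at 20.7, 29.1 and 20.7 FPKM at day 3, against 1.32, 0.92 and 1.06 FPKM in sham (3.53 ± 0.17, limma adjusted p = 2.82e-06), and its mean FPKM at day 3 was 21.4 times that in sham. Eif2ak2, the kinase PKR that stops translation when it binds double-stranded RNA, stood at 9.54, 8.12 and 6.42 FPKM at day 3, against 1.46, 0.79 and 1.19 FPKM in sham (2.07 ± 0.18, limma adjusted p = 3.56e-05). Ifitm3, a membrane protein that blocks fusion of virus with the endosome, was the most abundant member in all 9 libraries. It stood at 117, 178 and 165 FPKM at day 3, against 53.2, 57.4 and 58.8 FPKM in sham (1.40 ± 0.24, limma adjusted p = 0.000976). Bst2, also called tetherin, which holds budding virus at the cell surface, stood at 33.6, 37.9 and 29.6 FPKM at day 3, against 9.06, 12.5 and 18.04 FPKM in sham (1.33 ± 0.31, limma adjusted p = 0.00563). For all of these the lowest day 3 library lay above the highest sham library. Mx1 was left out by the filter and stood at 0.62, 0.69 and 0.68 FPKM at day 3, against 0.22, 0.13 and 0.36 FPKM in sham. Mx2 averaged 2.96 ± 1.25 FPKM at day 3, against 0.31 ± 0.125 FPKM in sham (SD, n = 3 each). Samhd1, which degrades deoxynucleotides, had the smallest called fold change, 0.51 ± 0.17 (limma adjusted p = 0.0307). That call was lost under 6 alternatives. Scaling by the median of ratios gave an adjusted p of 0.114, and the values were 0.0802, 0.0721, 0.0912 and 0.0537 when sham library 2, sham library 3, day 3 library 1 or day 3 library 2 was left out.

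Rsad2 and Cmpk2 are neighbours on chromosome 12 that are transcribed away from each other, with 12751 bases between them, and their day 3 values are set side by side here. Rsad2 encodes viperin, which makes a chain-terminating nucleotide, and Cmpk2 encodes a mitochondrial nucleotide kinase that supplies its substrate. Rsad2 stood at 13.4, 16.6 and 11.1 FPKM at day 3, against 4.44, 3.39 and 3.48 FPKM in sham (1.61 ± 0.18, limma adjusted p = 0.000112). Cmpk2 stood at 4.66, 2.89 and 2.77 FPKM at day 3, against 2.65, 2.74 and 2.93 FPKM in sham, and the groups overlapped (0.21 ± 0.16, limma adjusted p = 0.291). Under median-of-ratios scaling its value was -0.017. The ratio of Rsad2 to Cmpk2 within a library was 2.88, 5.74 and 4.01 at day 3, against 1.68, 1.24 and 1.19 in sham. Their windows are shown because the pair is close in the genome and unlike in the change from sham at day 3. Rsad2 lies at chr12:26456403-26456702 on the minus strand and Cmpk2 at chr12:26468965-26469264 on the plus strand, with capitals for the ISRE core as above.
Rsad2: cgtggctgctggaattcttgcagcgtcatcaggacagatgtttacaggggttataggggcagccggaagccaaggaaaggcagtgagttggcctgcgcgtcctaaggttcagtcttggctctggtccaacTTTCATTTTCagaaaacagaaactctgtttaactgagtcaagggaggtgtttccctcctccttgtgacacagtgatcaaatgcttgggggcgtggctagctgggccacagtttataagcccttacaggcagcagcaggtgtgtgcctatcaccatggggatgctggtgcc
Cmpk2: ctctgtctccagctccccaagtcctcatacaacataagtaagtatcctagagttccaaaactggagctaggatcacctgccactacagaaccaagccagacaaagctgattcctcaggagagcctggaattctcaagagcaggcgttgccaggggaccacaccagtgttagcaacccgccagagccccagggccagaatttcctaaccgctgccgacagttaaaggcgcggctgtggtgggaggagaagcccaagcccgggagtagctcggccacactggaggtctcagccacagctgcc
Rsad2 holds 1 ISRE core that begins at -120, and Cmpk2 holds neither motif in this window.

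The 3 interferon-inducible GTPases were less uniform. Gbp3, a guanylate-binding protein, stood at 17.9, 12.7 and 9.09 FPKM at day 3, against 1.86, 1.49 and 2.17 FPKM in sham, and every day 3 library was well above sham (2.29 ± 0.31, limma adjusted p = 0.000316). Gbp2, a relative of the same family, stood at 44.5, 16.3 and 13.3 FPKM at day 3, against 3.32, 4.38 and 7.46 FPKM in sham (1.94 ± 0.48, limma adjusted p = 0.00722). The groups did not overlap, and the value was 1.43 (adjusted p = 0.0158) without day 3 library 1. Igtp, the immunity-related GTPase Irgm3, was singled out after its values were seen. It stood at 85.9, 7.48 and 7.97 FPKM at day 3, against 5.75, 5.95 and 18.3 FPKM in sham, so that only day 3 library 1 was above all sham libraries (0.96 ± 0.87, limma adjusted p = 0.366). Igtp overlaps Irgm2 on the same strand, and reads in the shared stretch may have been counted for either.

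The 6 remaining members were all called higher, with log2 fold changes of 0.69 to 1.87. Parp14, an ADP-ribosyltransferase, had the largest of these, with a mean of 8.27 ± 3.64 FPKM at day 3, against 1.43 ± 0.248 FPKM in sham (SD, n = 3 each). Xaf1, a protein that promotes cell death, averaged 5.62 ± 1.37 FPKM at day 3, against 1.19 ± 0.206 FPKM in sham. Ifi27, a small mitochondrial protein, averaged 29.46 ± 4.975 FPKM at day 3, against 13.45 ± 1.778 FPKM in sham (SD, n = 3 each; 1.07 on the log2 scale). Ifi35, a leucine zipper protein, averaged 25.4 ± 2.95 FPKM at day 3, against 9.44 ± 1.67 FPKM in sham (SD, n = 3 each; 1.34 on the log2 scale). Rtp4, which overlaps Gm45338 on the same strand and Masp1 on the other, had a log2 fold change of 1.01. Parp14 and, of the ISG15 class, Herc6 also overlap a gene on the same strand (Gm49730 and Gm45193). Ifi44 had the smallest, 0.69 ± 0.20 (limma adjusted p = 0.0158), and its call was lost on removing the GC content and length trends (adjusted p = 0.179) or leaving out sham library 2 (0.06), day 3 library 1 (0.0512) or day 3 library 2 (0.0569).

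**Figure D3:**
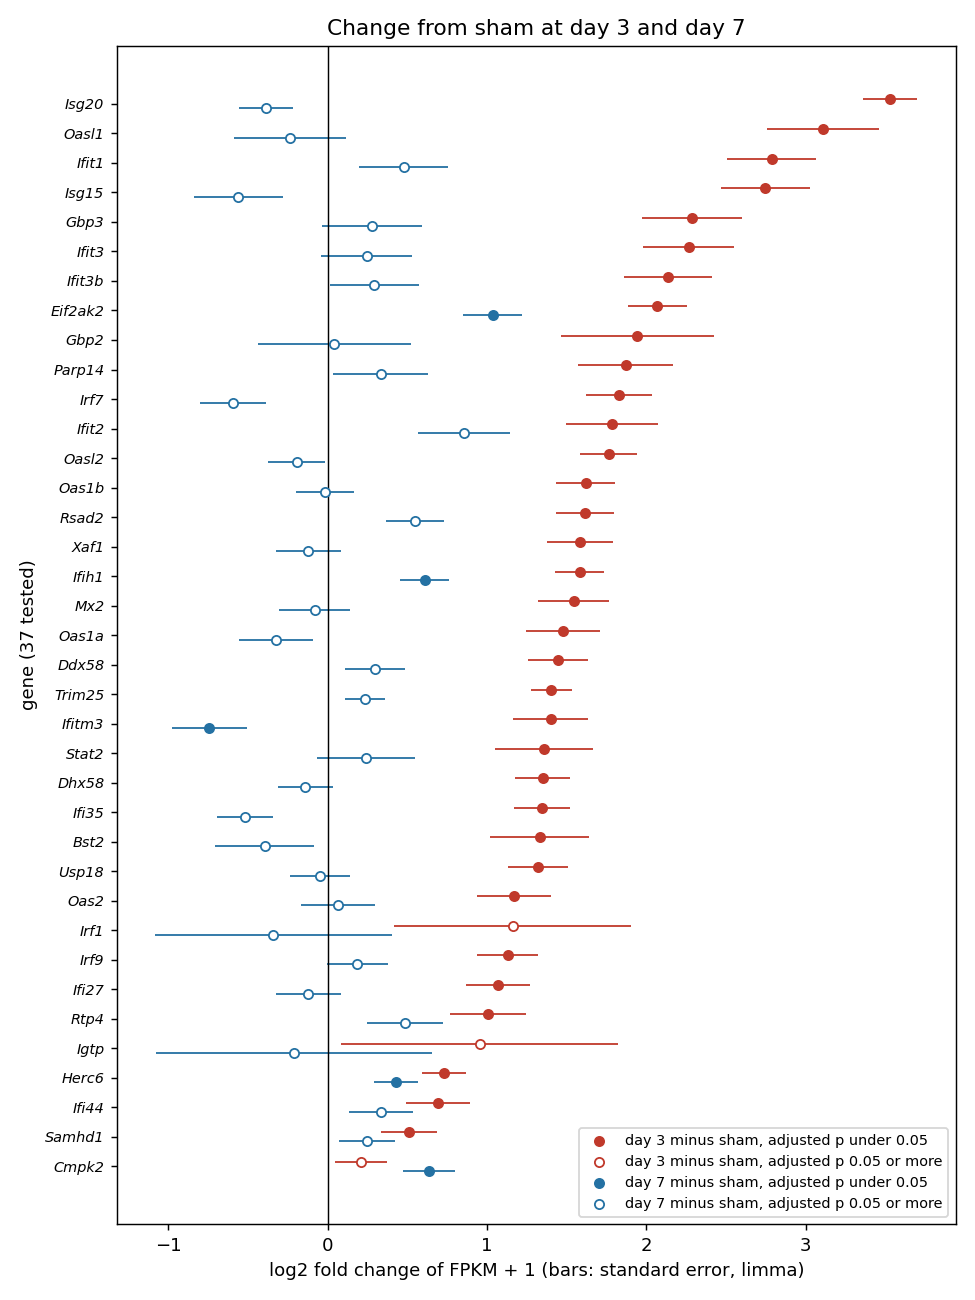
Log2 fold changes on the log2(FPKM + 1) scale of the 37 tested interferon-stimulated genes at day 3 and at day 7 against sham, with standard errors from limma; filled symbols have a Benjamini-Hochberg adjusted p under 0.05. The day 3 values run from 0.21 for Cmpk2 to 3.53 for Isg20, whereas the day 7 values run from -0.74 for Ifitm3 to 1.04 for Eif2ak2.

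The ligands themselves were at low levels in these libraries. Of 21 interferon genes, 12 were listed at 0 in all 9 libraries, 0 passed the filter, and the only one to reach 1 FPKM was Ifnk. In 4 of the 21 every day 3 library lay above every sham library, although these were not tested. Over all tested genes that held for 42.1%, but those had passed the filter and these ligands had not, so the shares are not alike. The 12 ligands listed at 0 throughout could not lie above sham. Ifnk, which encodes interferon kappa and was named after its values were seen, stood at 0.69, 1.61 and 1.07 FPKM at day 3, against 0.07, 0 and 0 FPKM in sham. The other 3, all type I interferon genes, were Ifnab, Ifna13 and Ifnz. Ifnab stood at 0.42, 0.65 and 0.47 FPKM at day 3 and Ifna13 at 0.21, 0.17 and 0.33 FPKM, against 0 in every sham library for both. Ifnz stood at 0.10, 0.34 and 0.43 FPKM at day 3, against 0.05, 0 and 0 FPKM in sham. All 4 stayed under 2 FPKM in every library. Ifnb1, which encodes interferon beta, was listed at 0 in every day 3 and sham library. Ifng was listed at 0 in the 3 day 3 libraries, and at 0, 0 and 0.01 FPKM in sham. The 10 markers of T and NK cells, the usual sources of interferon gamma, summed to 0.09 to 0.26 FPKM at day 3, against 1.67 to 4.11 FPKM in sham. Of these 10, 9 were at or under 1 FPKM in all 9 libraries. Without read counts, an FPKM of 0 is no measure of absence.

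Of the 6 receptor genes, 4 were called higher at day 3 and 0 lower in limma (also 4 and 0 at an unadjusted p under 0.05), beside 39.3% and 20.6% of all tested genes. Ifngr2, a chain of the interferon gamma receptor, had the largest change, at 19.5, 18.9 and 21.5 FPKM at day 3, against 4.76, 3.08 and 3.68 FPKM in sham (2.13 ± 0.18, limma adjusted p = 2.9e-05). Ifnlr1 and Ifngr1, chains of the interferon lambda and gamma receptors, had log2 fold changes of 1.35 ± 0.20 and 1.34 ± 0.35. Ifnar1 was at 0.64 ± 0.17 (adjusted p = 0.0115), and median-of-ratios scaling ended its call (0.38, adjusted p = 0.0661). Of 7 genes of JAK, STAT and IRF signalling, 2 were called higher, the kinases Jak2 (1.29 ± 0.16) and Jak1 (0.71 ± 0.12), which is a share of 28.6%, below that over all tested genes.

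Negative regulators and upstream sensors were mixed. Of 7 tested negative regulators, 4 were called higher and 1 lower. Socs3, which blocks Janus kinases and is also induced by interleukin-6, had the largest change, at 20.9, 29.7 and 27.1 FPKM at day 3, against 1.09, 0.95 and 1.41 FPKM in sham (3.63 ± 0.38, limma adjusted p = 7.97e-05). The phosphatase Ptpn2 and the deubiquitinase Cyld rose by 1.34 ± 0.16 and 1.27 ± 0.17, whereas Ptpn6, the phosphatase SHP-1, fell by 0.83 on the log2 scale (SE 0.13, limma adjusted p = 0.000739). Of 11 tested genes of nucleic acid sensing, 7 were called higher and 1 lower. Tmem173, which encodes STING, the adaptor for cytosolic DNA, averaged 6.16 ± 1.31 FPKM at day 3, against 1.3 ± 0.179 FPKM in sham (SD, n = 3 each; 1.62 ± 0.26 on the log2 scale). The kinase Tbk1 (1.38 ± 0.23) and the endosomal RNA receptor Tlr3 (1.18 ± 0.14) also rose. Ticam1, the adaptor of TLR3, was called lower by a small margin (-0.34 ± 0.12, limma adjusted p = 0.0327), a call that 9 of the 15 alternatives did not keep. Over all 41 tested genes of these lists, 22 (53.7%) were called higher and 2 (4.88%) lower, beside 39.3% and 20.6% of all tested genes.

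The list of 16 other genes inducible by interferon gamma showed how day 3 library 1 differed from the other day 3 libraries. Of its 10 tested genes, 5 were called higher at day 3 and 0 lower, beside 39.3% and 20.6% of all tested genes. The chemokine Cxcl10 stood at 25.0, 12.4 and 8.41 FPKM at day 3, against 0.53, 1.27 and 2.72 FPKM in sham (2.66 ± 0.49, limma adjusted p = 0.00153). Cd274, which encodes the checkpoint ligand PD-L1, stood at 11.6, 9.92 and 8.03 FPKM at day 3, against 1.12, 1.01 and 1.36 FPKM in sham (2.32 ± 0.17, limma adjusted p = 1.64e-05). Both were high in all 3 day 3 libraries. Irgm1, an immunity-related GTPase, stood at 105, 15.3 and 16.3 FPKM at day 3, against 4.45, 4.82 and 7.42 FPKM in sham. Its log2 fold change was 2.27 ± 0.65 (limma adjusted p = 0.0147), and leaving out day 3 library 1 gave 1.38 (adjusted p = 0.00498). Gbp7 stood at 20.2, 4.27 and 3.59 FPKM at day 3, against 1.95, 0.58 and 0.93 FPKM in sham. Its value was 1.94 ± 0.55 (limma adjusted p = 0.0145). Leaving out day 3 library 1 gave 1.24 (adjusted p = 0.015), and leaving out sham library 2 ended the call (adjusted p = 0.0515). The fifth called gene was Gbp9.

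In day 3 library 1, 8 of these 16 genes (Gbp5, Gbp6, Gbp7, Irgm1, Irgm2, Iigp1, Tgtp1 and Tgtp2) were at least 2-fold above both other day 3 libraries on the log2(FPKM + 1) scale, with Gbp5 exactly at that limit. The same held for 3 of the 39 members, Irf1, Gbp2 and Igtp, for Irf8, and for 1.94% of all tested genes. The median difference of the 10 tested genes of the list from the sham mean was 2.95, 0.50 and 0.52 in day 3 libraries 1, 2 and 3. The median over the 37 tested members was 1.66, 1.61 and 1.35 in the same libraries, so the interferon-stimulated genes as a whole did not separate that library. Genes with the highest level of the 3 day 3 libraries in library 1 numbered 17 of the 39 members, beside 48.1% of all tested genes. Without day 3 library 1, 32 members were called higher and 0 lower at day 3, with a median of 1.46. Over all tested genes, 37.7% were then called higher and 21.7% lower. The log2 fold change of Irf1 was then 0.21 (adjusted p = 0.704) and that of Igtp -0.15 (adjusted p = 0.822). Irf1 was called higher when day 3 library 2 was left out instead (1.94, adjusted p = 0.0318). Day 3 library 1 had the lowest neutrophil and macrophage marker sums of its group (29.2 and 111 FPKM) and 0.09 FPKM of T and NK cell markers. Its endothelial markers summed to 28.7 FPKM (58.4 and 78.4 in the other day 3 libraries) and its podocyte markers to 45.05 FPKM (93.8 and 88.3), and the part of cell content in its pattern was not tested.

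**Figure D4:**
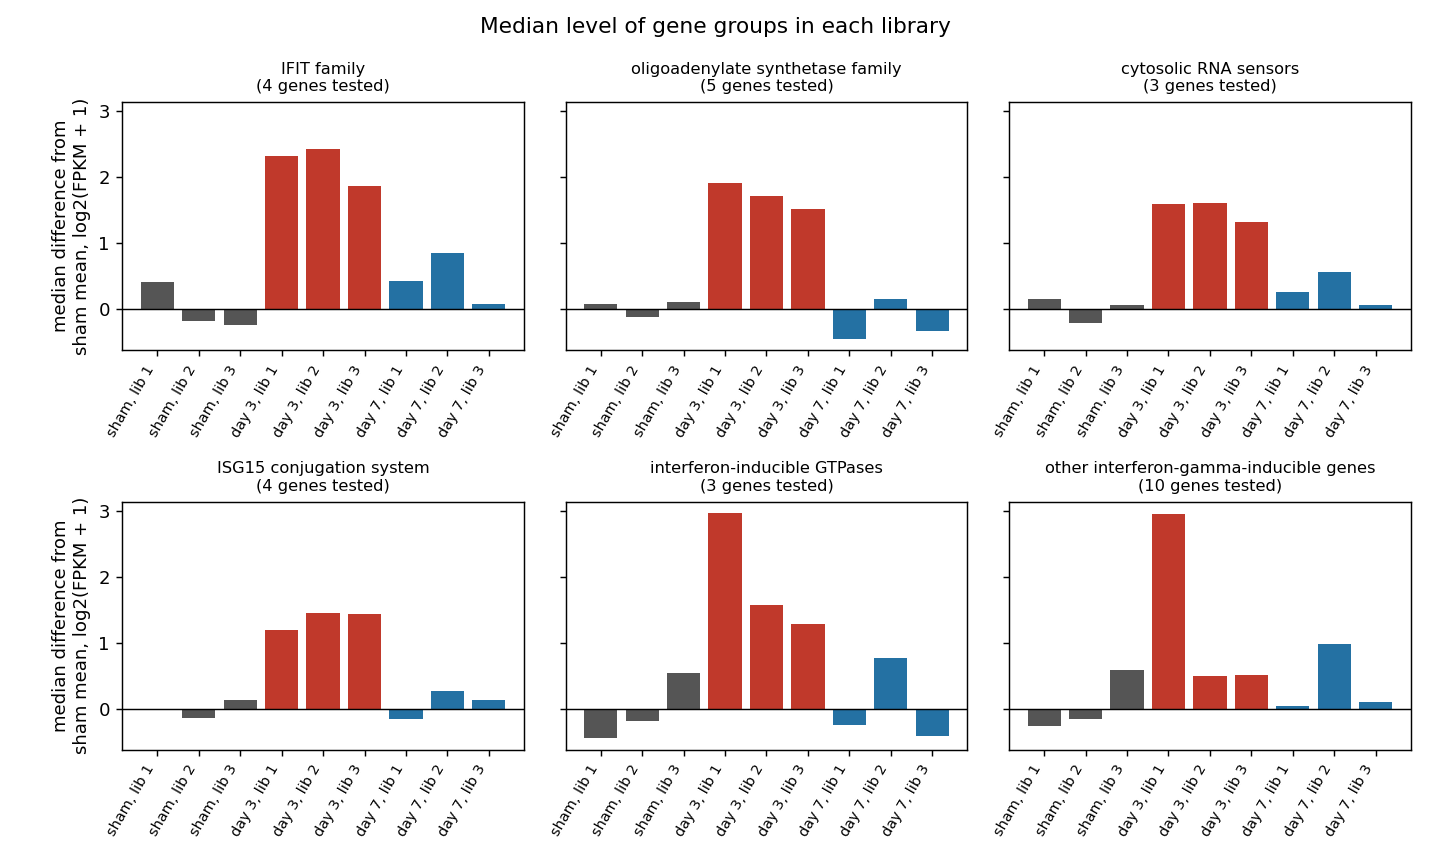
Median difference from the sham mean, on the log2(FPKM + 1) scale, of 6 groups of genes in each of the 9 libraries (bars: sham, day 3 and day 7). The IFIT, oligoadenylate synthetase, RNA sensor and ISG15 groups were at like levels in the 3 day 3 libraries, whereas the other interferon-gamma-inducible genes stood at 2.95 in day 3 library 1 and at 0.50 and 0.52 in the others.

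Irf1, Igtp and Gbp2 were the members that set day 3 library 1 apart, and the windows of Irf1 and Igtp are shown for their GAS letters. The first RefSeq start of Irf1 gives chr11:53769764-53770063 and Igtp gives chr11:58199306-58199605, both on the plus strand of GRCm38.p6, with capitals for GAS and ISRE letters.
Irf1: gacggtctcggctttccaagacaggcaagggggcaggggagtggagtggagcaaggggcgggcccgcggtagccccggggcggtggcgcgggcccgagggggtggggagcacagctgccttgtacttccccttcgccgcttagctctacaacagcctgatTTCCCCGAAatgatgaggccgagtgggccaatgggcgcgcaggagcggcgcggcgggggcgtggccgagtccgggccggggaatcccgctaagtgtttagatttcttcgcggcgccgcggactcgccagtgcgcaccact
Igtp: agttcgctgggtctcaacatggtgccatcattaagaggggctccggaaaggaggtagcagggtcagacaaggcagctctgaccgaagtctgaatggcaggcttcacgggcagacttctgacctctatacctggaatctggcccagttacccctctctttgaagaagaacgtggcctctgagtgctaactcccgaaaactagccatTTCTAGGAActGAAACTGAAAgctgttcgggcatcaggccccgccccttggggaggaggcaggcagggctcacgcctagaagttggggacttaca
Irf1 holds 1 GAS match that begins at -90 and no ISRE core. Igtp holds 1 GAS match at -45 and 1 ISRE core at -34. The window of Gbp2, not printed, holds 1 ISRE core at -59 and no GAS letters. GAS letters are also found in windows of Isg20, Ifit2 and Bst2, members that did not set that library apart. Of the 9 other interferon-gamma-inducible genes with a window, 7 held an ISRE core and 5 held GAS letters.

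By day 7, most interferon-stimulated genes were at levels that overlapped those of sham. Of the 37 tested members, 4 were called higher, 1 was called lower and 32 were not called, beside 19.3% called higher and 10.4% called lower over all tested genes (16.4% and 16.2% under median-of-ratios scaling). The median log2 fold change of the tested members was 0.07, beside 0.06 over all tested genes. Every day 7 library lay above every sham library in 6 members and below in 3, where 29.5% and 19.1% of all tested genes did so. A value that was not called does not show that a gene had returned to the sham level.

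Eif2ak2 kept the largest difference, at 3.14, 4.21 and 2.85 FPKM at day 7, against 1.46, 0.79 and 1.19 FPKM in sham (1.04 ± 0.18, limma adjusted p = 0.0048). Its 3 day 7 libraries lay between the sham and the day 3 libraries. Cmpk2, which was not called at day 3, stood at 4.69, 5.42 and 4.49 FPKM at day 7, against 2.65, 2.74 and 2.93 FPKM in sham, without overlap (0.63 ± 0.16, limma adjusted p = 0.0202). Ifih1 stood at 1.10, 1.90 and 1.54 FPKM at day 7, against 0.83, 0.39 and 0.71 FPKM in sham (0.61 ± 0.15, limma adjusted p = 0.0184). Herc6 stood at 0.58, 1.09 and 0.71 FPKM at day 7, against 0.39, 0.21 and 0.38 FPKM in sham (0.43 ± 0.14, limma adjusted p = 0.0473). Ifitm3 was the member called lower, at 27.8, 48.6 and 27.5 FPKM at day 7, against 53.2, 57.4 and 58.8 FPKM in sham (-0.74 ± 0.24, limma adjusted p = 0.0445). All 3 of its day 7 libraries were below all sham libraries, the reverse of its position at day 3.

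None of these 5 calls held under every alternative. After trends with GC content and transcript length were removed, 0 members were called at day 7 in limma, with 2 higher and 0 lower at an unadjusted p under 0.05, and the calls over all genes dropped to 856 of 13707, against 4075 of 13718 without the removal. Eif2ak2 was then at 0.60 (adjusted p = 0.081), Cmpk2 at 0.39 (0.171), Ifih1 at 0.06 (0.851), Herc6 at -0.19 (0.426) and Ifitm3 at -0.39 (0.348). Eif2ak2 kept its call under the 14 other alternatives. Leaving out 1 library ended the call of Cmpk2 for sham library 2 (adjusted p = 0.0618) and day 7 libraries 1 and 2 (0.0525 and 0.0691), and that of Ifih1 for sham library 2 (0.0669) and day 7 libraries 2 and 3 (0.0614 and 0.0574). Of the 9 fits that each left out 1 library, Herc6 kept its call in the one without day 3 library 1 (0.0493), and the others gave 0.0507 to 0.149. Ifitm3 kept its call in those without day 3 library 1 (0.0305) or day 7 library 2 (0.0136), and the others gave 0.0531 to 0.141. Just short of the threshold stood Rsad2 (0.55, adjusted p = 0.051), Ifit2 (0.85, 0.0538), Ifi35 (-0.52, 0.055) and Irf7 (-0.59, 0.06), which were picked out after their values were seen.

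Of the 41 tested pathway genes, 7 (17.1%) were called higher and 2 (4.88%) lower at day 7, shares near or below the 19.3% and 10.4% of all tested genes. Of the 6 receptor genes 0 were called in limma, and 0 had an unadjusted p under 0.05. Among those called higher were Cyld (0.95 ± 0.17, limma adjusted p = 0.00455), Tlr3 (0.87 ± 0.14, 0.00309), Jak1 (0.70 ± 0.12, 0.00374) and Tbk1 (0.71 ± 0.23, 0.0465). Of the alternatives, only a pseudocount of 0.1 and leaving out sham library 3 kept the call of Tbk1 (0.0483 and 0.00872), and the others gave 0.0567 to 0.248. Ticam1 was 1 of the 2 called lower (-0.53, limma adjusted p = 0.0112). Only removal of the GC content and length trends ended its call (-0.17, adjusted p = 0.451). After removal of the GC content and length trends, 1 of the 41, Jak1, was called at day 7 (adjusted p = 0.0418).

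Set directly against day 3, day 7 levels were lower in 30 of the 37 tested members and higher in 0, with 7 not called, beside 33.7% called lower and 21.7% called higher over all tested genes (27.3% each under median-of-ratios scaling). At an unadjusted p under 0.05 in limma, 30 were lower and 1, Cmpk2, was higher. The median of the tested members was -1.50, beside -0.16 over all tested genes. In 32 of the 39 members every day 7 library lay below every day 3 library, as did 39.2% of all tested genes. The members not called were Irf1, Herc6, Cmpk2, Samhd1, Igtp, Ifi44 and Rtp4. This comparison shares its day 3 libraries with that of day 3 against sham, and the 7 members that passed the filter only through those libraries had little room to be anything but lower at day 7. Of the 30 others, 24 were called lower and 0 higher, beside 30.6% lower and 23.8% higher among the 12498 genes that passed in the same way.

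Isg20, one of those 7, had the largest difference, at 0.65, 0.83 and 0.36 FPKM at day 7, against 20.7, 29.1 and 20.7 FPKM at day 3 (-3.92 ± 0.17, limma adjusted p = 1.98e-06). Its day 7 libraries were also below all sham libraries, although that difference was not called (-0.39 ± 0.17, limma adjusted p = 0.121). Oasl1, another of them, stood at 0.34, 1.03 and 0.45 FPKM at day 7, against 15.9, 25.8 and 8.12 FPKM at day 3 (-3.34 ± 0.35, limma adjusted p = 9.55e-05). Isg15 stood at 1.69, 3.98 and 1.91 FPKM at day 7, against 27.7, 44.5 and 27.9 FPKM at day 3 (-3.31 ± 0.28, limma adjusted p = 3.34e-05). Irf7 stood at 1.15, 2.21 and 1.09 FPKM at day 7, against 10.6, 14.6 and 11.4 FPKM at day 3 (-2.42 ± 0.21, limma adjusted p = 3.6e-05). For these genes the highest day 7 library was far under the lowest day 3 library. The RNA sensors and Eif2ak2 differed less, with log2 differences of -0.97 for Ifih1, -1.15 for Ddx58, -1.49 for Dhx58 and -1.03 for Eif2ak2. Ifit1 stood at 1.10, 3.02 and 1.57 FPKM at day 7 and had a log2 difference of -2.31 from day 3. Ifit3 and Ifit3b averaged 18.6 ± 6.21 and 5.76 ± 1.97 FPKM at day 7, against 76.3 ± 14.9 and 22.9 ± 4.83 FPKM at day 3 (SD, n = 3 each).

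Cmpk2 was the only member with a positive value in this comparison. It was 0.42 ± 0.16 above day 3 at day 7 (limma adjusted p = 0.0525), and it was called higher by 2 alternatives. Scaling by the median of ratios gave 0.57 with an adjusted p of 0.00944, and leaving out day 3 library 1 gave 0.61 with an adjusted p of 0.00241. The ratio of Rsad2 to Cmpk2 was 1.23, 1.37 and 1.09 at day 7, against 2.88, 5.74 and 4.01 at day 3. The calls of Stat2 and Ifit2 were the ones that some alternatives did not keep. Leaving out day 7 library 1 or 3 ended that of Stat2 (adjusted p = 0.0508 and 0.0518), and leaving out day 3 library 1 or day 7 library 1 or 3 ended that of Ifit2 (0.0721, 0.0516 and 0.0814).

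Within day 7, library 2 held the highest level of the 3 in 37 of the 39 members and in 16 of 16 other interferon-gamma-inducible genes, beside 56.4% of all tested genes. The median difference of the tested members from the sham mean was -0.06, 0.45 and -0.09 in day 7 libraries 1, 2 and 3. Gbp3 stood at 1.64, 4.54 and 1.76 FPKM, Gbp2 at 3.94, 8.91 and 3.39 FPKM, and Bst2 at 6.84, 15.7 and 7.70 FPKM in these libraries. The same library had 22.7 FPKM of neutrophil markers (4.61 and 10.3 in the others), 84.3 FPKM of macrophage and monocyte markers (33.4 and 29.9) and 3.24 FPKM of T and NK cell markers (1.72 and 1.67), and the part of these cells in its higher levels was not tested. Without it, 1 member was called higher and 3 lower against sham at day 7, beside 12.3% and 7.33% of all tested genes. Against day 3, day 7 libraries 1 and 3 alone gave -4.01 for Isg20 and -2.41 for Ifitm3.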

How the data were processed

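Whole kidneys were profiled by RNA sequencing in 9 libraries. The deposited values are FPKM per gene, computed by the authors with 2 decimals kept, per the file headers. Per the submitters' processing notes, HISAT, StringTie, FastQC 0.10.1 and GRCm38 were used, with no role given; settings, annotation release and strand handling are not given in sources available here. Per the labels' protocols, the library kit is directional and RNA integrity numbers exceeded 7.0. FPKM is scaled within a library, so abundant transcripts that rise lower all others, and low values of FPKM showed no whole-read steps, so depth is unknown and no interval is given.

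Gene IDs were matched to GENCODE M21 (55144 with a symbol, 241 without). Of 174 genes in the lists, 2 older or newer names were unmatched, and 1 further pathway gene is not reported here. The 13718 genes that reached 1 FPKM in 3 or more of the 9 libraries were tested, as log2(FPKM + 1), a scale that understates changes of low genes. A group-means model over all 9 libraries was fitted in limma (3.58.1, R 4.3.3; eBayes, trend). Day 3 minus sham, day 7 minus sham and day 7 minus day 3 were tested two-sided, with Benjamini-Hochberg adjustment across the 13718 genes and calls at adjusted p under 0.05. No 2 libraries were identical. The script was tested on simulated data. Members and lists were chosen with earlier results of these data known, so their counts are descriptions. Values per library are given for the 8 largest called changes at day 3, up to 6 called at day 7, and 14 fixed members. Up to 3 called genes per pathway list and contrast were also selected. Some of these have values per library and others only a fold change or group means. Irf3, Ptpn11, Myd88 and Adar were selected but are not described. Alternatives were a pseudocount of 0.1, no filter, median-of-ratios scaling, the replicate number as a block, the 6 libraries of a contrast, removal of GC content and length trends (splines with 5 degrees of freedom) and leaving out each library. Promoter windows are those of RefSeq. Python 3.11.15, pandas 2.3.3, Biopython 1.88 and matplotlib 3.10.9 were used.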

Additional observations from a re-analysis of the deposited data

Results flagged for a closer look

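The change against sham at day 7 was set against that at day 3, which is the direct contrast of day 7 minus day 3 in limma because both share the sham libraries. The difference passed the threshold, always as a lower value at day 7, for 18 of the 21 tested members named by rule, beside 33.7% called lower over all tested genes. The selection favoured that direction, since 8 of the 18 were named for the size of their change at day 3, 4 of the 21 passed the filter only through the day 3 libraries, and the test uses the same day 3 libraries, so the count is a description. The log2 difference was -3.92 for Isg20, -3.34 for Oasl1, -3.31 for Isg15, -2.42 for Irf7, -2.31 for Ifit1 and -2.14 for Ifitm3. It was -2.02 for Ifit3, -2.01 for Gbp3, -1.90 for Gbp2, -1.84 for Ifit3b, -1.73 for Bst2 and -1.63 for Oas1b. It was -1.37 for Usp18, -1.15 for Ddx58, -1.12 for Stat2, -1.03 for Eif2ak2, -0.97 for Ifih1 and -0.95 for Irf9. The adjusted p ran from 1.98e-06 for Isg20 to 0.0136 for Stat2. Without day 3 library 1 the value for Gbp2 was -1.39 (adjusted p = 0.019).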

How the results depend on the processing

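Of the 34 members called at day 3, 31 kept their call under all 15 alternatives; of the 5 at day 7, 0 did; and of the 30 in day 7 minus day 3, 28 did. The day 3 median was 1.89 with a pseudocount of 0.1 and 1.24 under median-of-ratios scaling, and that of day 7 minus day 3 was -1.91 with a pseudocount of 0.1. Members called at day 7 numbered 8 with a pseudocount of 0.1 (2 lower), 2 without the filter (2 higher, 0 lower), 8 under median-of-ratios scaling (3 lower), 3 with the 6 libraries of the contrast (0 lower) and 0 (0 higher, 0 lower) after removing GC content and length trends. The share of all genes called at day 7 was 29.7% in the main fit. In the order of these alternatives it was 29.5%, 9.48%, 32.6%, 30.5% and 6.24%. It thus also dropped without the filter and after removing GC content and length trends. Pathway genes called at day 7 numbered 5 without the filter and 1 after that removal. With 1 library left out, 32 to 34 members were called at day 3, 1 to 6 at day 7 (1 to 5 higher, 0 to 3 lower) and 28 to 33 in day 7 minus day 3 (0 to 1 higher). Pathway genes then numbered 4 to 10 at day 7 and 11 to 18 in day 7 minus day 3. Over all tested genes, the share then called was 51.8% to 59.9% at day 3 and 18% to 34.4% at day 7. It was 45.7% to 57.6% in day 7 minus day 3. Under median-of-ratios scaling 1 member was called higher in day 7 minus day 3, beside 27.3% of all tested genes. The sign turned for Cmpk2 at day 3 under median-of-ratios scaling (-0.017), for Igtp at day 3 without day 3 library 1 (-0.15, in a range of -0.15 to 1.53 over the libraries left out), and, after the GC content and length removal, for Herc6 (-0.19) and Isg20 (0.21) at day 7. Those are the sign turns of values given in the text; over all 37 tested members, 2 turned under at least 1 alternative at day 3, 17 at day 7 (12 of them after that removal, 1 of the 17 a called member) and 0 in day 7 minus day 3. The causes were not tested. For libraries that share a replicate number, the 9 correlations of their deviations ran from -0.05 to 0.24, with 3 over 0.1, and 9 of 18 were best with their own number. These values do not settle whether the libraries were paired. With the replicate block, 34 members were called at day 3, 7 at day 7 (2 lower) and 30 in day 7 minus day 3. The shares called over all tested genes were then 59.9%, 28.3% and 55%. Oas3 and Mx1 were tested without the filter only, and were then called at day 3 (adjusted p = 0.0177 and 0.0245) and in day 7 minus day 3 (0.0213 and 0.0412), not at day 7 (1 and 0.968).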

Other observations

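Sham library 3 held the highest of the 3 sham levels in 20 of the 39 members and in 12 of the 16 other interferon-gamma-inducible genes, whereas it did so in 24.8% of all tested genes. Igtp stood at 18.3 FPKM there, against 5.75 and 5.95 FPKM in sham libraries 1 and 2, and Tgtp1 at 6.95 FPKM, against 1 and 2.39 FPKM. The T and NK cell markers summed to 4.11 FPKM in that library and to 1.67 and 1.75 FPKM in the other sham libraries, and their part was not tested. Transcripts of Tgtp1 and Tgtp2 are identical over 99.8% of their aligned bases, so their separate values are uncertain.

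Cxcl9, a chemokine that depends on interferon gamma, went a different way from its neighbour Cxcl10. Cxcl9 was listed at 0.05, 0.03 and 0.05 FPKM at day 3, against 0.11, 0.69 and 2.16 FPKM in sham, and was not tested because it stayed below the filter. Both genes lie on chromosome 5, at 92321347 to 92328079 for Cxcl9 and 92346638 to 92348889 for Cxcl10 (GENCODE M21, GRCm38).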
